A study of Mus musculus with 2 samples.

Results

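LINE sequence marked by a fusion of the DNA methyltransferase Dnmt1 with Dam was examined in early mouse embryos. The deposited peak table names the repeat classes found at each peak. A peak was taken as a LINE peak where LINE was named and neither SINE nor LTR was, and 624 of the 8226 listed peaks (7.59%) met this rule. Of these, 419 were intergenic, 169 lay in gene bodies, 24 in distal promoters and 12 in proximal promoters. They were compared with the listed peaks of the same location class at which no LINE was named, 3730 of them intergenic and 3305 in gene bodies.

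The embryos came from superovulated BCF1 females (C57BL/6 x CBA/CA) of 5 weeks of age, mated with males whose strain the labels do not give. Embryos were injected with Dnmt1-V5-Dam or with Dam alone, and 50 of each were harvested at the 4- to 8-cell stage. Embryos of both groups carried bacterial Dam, and those given Dam alone lacked the Dnmt1 and V5 parts of the fusion. The material is pooled DNA of whole embryos, and each group is 1 library, so no spread between replicates exists and no p-value was computed. Intervals are exact Clopper-Pearson intervals at 95% over peaks and cover counting error only. For medians they are exact binomial intervals from the ordered values.

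LINEs are autonomous retrotransposons that copy themselves through an RNA intermediate and a reverse transcriptase of their own. In the mouse most are L1 elements, many of them truncated at the 5' end, and they are common in A/T-rich, gene-poor DNA and on the X chromosome. DNA methylation is known to restrain the L1 promoter, and Dnmt1 copies methylation onto the new strand after replication. Cleavage-stage embryos are known to transcribe L1. Dam methylates adenine within GATC, so a DamID peak marks GATC sites that the fusion reached more than Dam alone did. The table names the class LINE and no family, age or position within the element.

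Among the LINE peaks, 587 carried the name LINE once and no other class. A further 18 named LINE 2 times and no other class. Simple repeats were named beside LINE at 12, DNA transposons at 6 and low-complexity sequence at 1. A further 49 peaks with LINE also named a SINE or an LTR element, and these entered neither class.

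The genes whose start sites lay nearest to a LINE peak, among those with 1 promoter in the RefSeq table, were Myh3, Rnf26 and Tnk1. The 250 bases before their start sites are shown because they are the promoter DNA next to these LINE peaks, which themselves lie outside the windows. They are written 5' to 3' from RefSeq (GRCm38.p6), with GATC, the Dam site, in capitals. Those letters read the same on both strands.
Myh3, chr11:67078050-67078299, plus strand: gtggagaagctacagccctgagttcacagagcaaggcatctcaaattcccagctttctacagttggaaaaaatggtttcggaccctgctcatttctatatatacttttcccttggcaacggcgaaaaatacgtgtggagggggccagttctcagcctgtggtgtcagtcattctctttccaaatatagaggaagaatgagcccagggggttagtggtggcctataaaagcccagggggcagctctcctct
Rnf26, chr9:44113052-44113301, minus strand: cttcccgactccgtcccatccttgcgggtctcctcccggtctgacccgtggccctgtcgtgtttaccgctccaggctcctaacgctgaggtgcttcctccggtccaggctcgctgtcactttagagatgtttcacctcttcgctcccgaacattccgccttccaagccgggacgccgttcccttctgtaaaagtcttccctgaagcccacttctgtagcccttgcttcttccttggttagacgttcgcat
Tnk1, chr11:69858731-69858980, minus strand: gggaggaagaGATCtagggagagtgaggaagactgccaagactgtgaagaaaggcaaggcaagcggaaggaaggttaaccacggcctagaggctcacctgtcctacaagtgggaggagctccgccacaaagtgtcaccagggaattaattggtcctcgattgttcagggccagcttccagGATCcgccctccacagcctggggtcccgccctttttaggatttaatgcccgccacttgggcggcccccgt
The Tnk1 window held 2 GATC sites and the windows of Myh3 and Rnf26 held 0. Of the 12 genes with a LINE peak in the proximal promoter, 11 had promoters in the table. These 11 genes had 12 promoters between them, and 5 of the 12 promoters held GATC (41.7%). The share was 41.9% of all 32851 promoters in the table. The LINE peak of Myh3, which encodes embryonic skeletal myosin, lay 0.359 kb downstream of the start site (mm9, chromosome 11, 66892161) with a height of 9 in the Dnmt1-Dam library against 1 in the Dam-only library. That of Rnf26, a ring finger protein gene, lay at -1.16 kb with 8 against 2. That of Tnk1, a tyrosine kinase gene, lay at -1.52 kb, in the shore of a CpG island, with 7 against 1. Here and below, negative distances are upstream of the start site. Heights are the authors' deposited signal at the peak. Sequence at the peaks themselves was not analysed here.

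LINE peaks made up a larger part of the intergenic peaks than of those inside genes. Of 4180 intergenic peaks, 419 were LINE peaks (10%, 9.13 to 11). Of 3492 peaks in gene bodies, 169 were (4.84%, 4.15 to 5.60), and these intervals do not overlap. The share was 7.16% in distal promoters (4.64 to 10.5), from 10 to 3 kb upstream of a start site. In proximal promoters, from 3 kb upstream to 1 kb downstream, it was 5.48% (2.86 to 9.38). Both promoter intervals are wide and overlap those of the other classes. Read the other way, 67.1% of LINE peaks were intergenic (63.3 to 70.8), against 49.4% of peaks without LINE (48.3 to 50.5). The intergenic LINE share exceeded the gene body LINE share on 19 of 19 autosomes. LTR peaks, with neither LINE nor SINE named, were intergenic about as often as LINE peaks. On the autosomes 65.9% of LTR peaks were intergenic (62.5 to 69.2), against 66.7% of LINE peaks (62.7 to 70.4). For SINE peaks, with neither LINE nor LTR named, it was 44.2% (41.5 to 47.0). The LINE content of each class of DNA was not analysed here, and the shares do not measure enrichment.

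**Figure D1:**
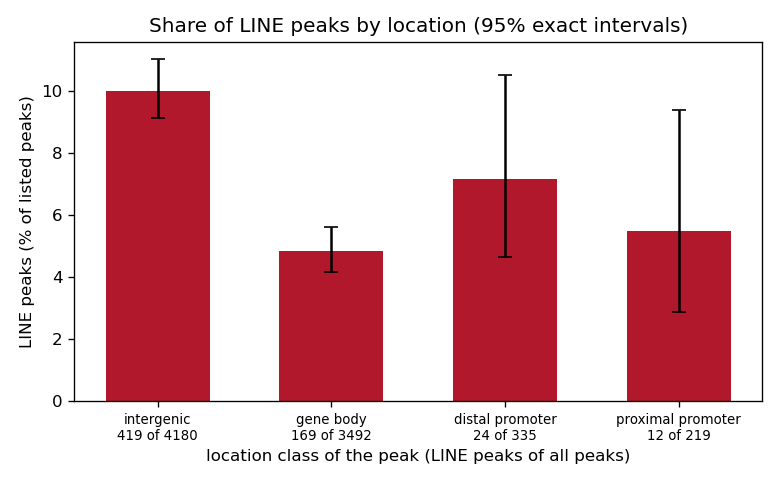
Bars give LINE peaks as a percentage of the listed peaks in each location class, with exact 95% intervals as lines. The intergenic bar (10%) stands above the gene body bar (4.84%) with no overlap of intervals, while both promoter classes have wide intervals.

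Within intergenic DNA, LINE peaks lay farther from genes. Their median distance from the assigned gene was 128 kb (105 to 149), against 77.3 kb (71.4 to 82.4) for intergenic peaks without LINE. More than 100 kb from the gene lay 236 of 419 LINE peaks (56.3%, 51.4 to 61.1), against 44.4% of the others (42.8 to 46.0). More than 500 kb away lay 73 LINE peaks (17.4%, 13.9 to 21.4), against 9.25% (8.34 to 10.2). On 15 of 19 autosomes the share beyond 100 kb was the higher one for LINE peaks.

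The change with distance was gradual. LINE peaks were 15 of the 275 intergenic peaks within 10 kb of a gene (5.45%, 3.08 to 8.84) and 7.56% of those from 10 to 50 kb (6.20 to 9.11). From 50 to 100 kb the share was 10% (7.87 to 12.6) and from 100 to 200 kb 9.84% (7.72 to 12.3), with neighboring intervals that overlap. It reached 12% from 200 to 500 kb (9.81 to 14.5) and 17.4% beyond 500 kb (13.9 to 21.4). SINE peaks, the short non-autonomous elements, went the other way over the same bins, from 19.6% within 10 kb (15.1 to 24.8) to 7.40% beyond 500 kb (5.08 to 10.3). LTR peaks, the endogenous retroviruses and their relatives, went from 10.2% (6.87 to 14.4) to 18.6% (15.0 to 22.7) but were nearly level between 10 and 500 kb. Intergenic LINE peaks lay upstream of the assigned start site in 63.0% of cases (58.2 to 67.6), against 57.8% (56.2 to 59.4) without LINE, and these intervals overlap.

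**Figure D2:**
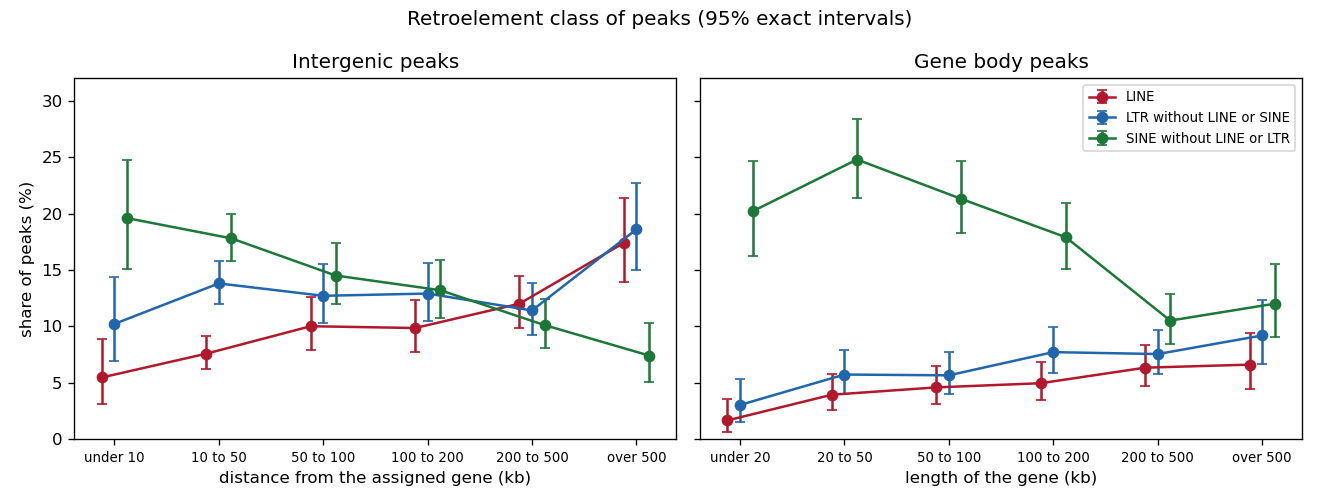
The left panel plots LINE, LTR and SINE peaks as a percentage of intergenic peaks by distance from the assigned gene in kb, the right panel as a percentage of gene body peaks by the length of that gene in kb. Points are shares, vertical lines exact 95% intervals, and the points of the classes are set apart sideways for legibility. The LINE share goes from 5.45% within 10 kb to 17.4% beyond 500 kb, and from 1.64% in genes under 20 kb to 6.59% in genes over 500 kb.

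Inside genes, LINE peaks were found in longer genes than peaks without LINE, and LTR peaks also made up more of the peaks in long genes. The gene holding a LINE peak had a median length of 167 kb (130.4 to 218), against 108 kb (102 to 113) for gene body peaks without LINE, and the median was the longer one on 17 of 19 autosomes. In genes of up to 20 kb, 6 of 366 gene body peaks were LINE peaks (1.64%, 0.604 to 3.53). The share was 3.92% from 20 to 50 kb, 4.57% from 50 to 100 kb and 4.94% from 100 to 200 kb. It was 6.32% from 200 to 500 kb (4.68 to 8.31) and 6.59% above 500 kb (4.42 to 9.38). LTR peaks went from 3.01% (1.51 to 5.31) to 9.18% (6.61 to 12.3) over the same lengths, and SINE peaks from 20.2% (16.2 to 24.7) to 12% (9.07 to 15.5). The difference in median length could not be shown with the higher peaks alone. With peaks of height 9 or more the medians were 116 kb (91.2 to 193) and 109.6 kb. That interval contains both 109.6 kb and the 167 kb of all gene body LINE peaks. With height 15 or more the medians were 103 kb (83.7 to 387) and 107 kb, over few peaks. Along the gene, the LINE share was 6.10% in the first 25% of the gene from the start site (4.50 to 8.05), 5.74% from 25 to 50%, 4.32% from 50 to 75% and 3.52% in the rest (2.45 to 4.89), with overlapping intervals.

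LINE peaks were as low as most of the list. Their Dnmt1-Dam heights ran from 7, the lowest value listed, to 34, with a median of 9 (8 to 9; interquartile range 7 to 10). Of the 624, 167 stood at 7 (26.8%, 23.3 to 30.4), against 26.9% of peaks without LINE. The intergenic median was 8 (8 to 9) against 9 (8 to 9) without LINE, and the gene body median 8 (8 to 9) against 9. A height of 15 or more was reached by 48 LINE peaks (7.69%, 5.73 to 10.1), where all 8226 peaks gave 8.66%. In intergenic DNA these were 32 of 419 (7.64%, against 8.11% of all intergenic peaks) and in gene bodies 13 of 169 (7.69%, against 8.96% of all gene body peaks). These shares at height 15 are near the background. At each lower limit from 9 to 14, LINE peaks had the smaller share in both locations, with overlapping intervals. The gap was clearest in gene bodies at 12 or more, with 14.2% of LINE peaks (9.32 to 20.4) against 21.3% without LINE (19.9 to 22.7). In intergenic DNA the shares at 12 or more were 16.5% and 19.5%. The highest LINE peak reached 34, the highest gene body peak without LINE 48 and the highest of all 8226 peaks 202. Of the 131 peaks of height 22 or more, 8 were LINE peaks, where 7.59% of the whole list were.

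**Figure D3:**
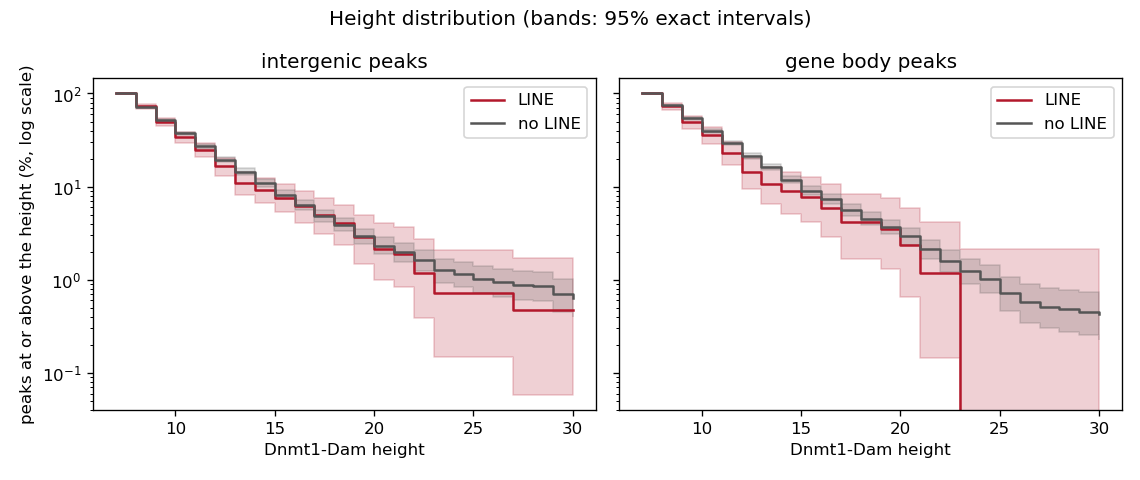
Curves show the percentage of peaks (log scale) at or above each Dnmt1-Dam height, for LINE peaks and peaks without LINE, in intergenic DNA and in gene bodies, with exact 95% intervals as bands. At a height of 15 the LINE curves stand at 7.64% and 7.69%, and the bands overlap there. The gene body LINE curve ends above its highest peak, of 22.

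The Dam-only library also gave like values. Its height was 1, the lowest listed, at 482 LINE peaks (77.2%, 73.7 to 80.5) and at 75.8% of peaks without LINE (74.8 to 76.7). In intergenic DNA the share was 78.5% (74.3 to 82.4) against 77.2% and in gene bodies 74.6% (67.3 to 80.9) against 74.8%. Dividing the Dnmt1-Dam height by the Dam-only height gave a median of 8 for intergenic peaks with LINE and without (7 to 8 in each). In gene bodies the LINE median was 7.50 (7 to 8). The smallest values in the list were a ratio of 2 and a difference of 6, so both measures have a floor. A ratio of 10 or more was found at 132 LINE peaks (21.2%, 18 to 24.6), where all peaks gave 23.4%. In intergenic DNA these were 86 peaks (20.5%, against 23.2% of all intergenic peaks), and in gene bodies 35 (20.7%, against 23.6% of all gene body peaks). LINE peaks held 7.35% of the summed Dnmt1-Dam height of the list and 7.40% of the summed Dam-only height.

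A Dam-only height of 4 or more, a limit chosen here for higher signal with Dam alone, occurred at 29 LINE peaks (4.65%, 3.13 to 6.61). Among the others it occurred at 5.76% (5.24 to 6.31). The largest Dam-only height of the list, 17, was at a LINE peak. This intergenic peak (chromosome 1, 56794711; -100.4 kb) was assigned to Hsfy2, a gene of the heat shock factor family, and had a Dnmt1-Dam height of 34. Its ratio of 2 equals the lowest in the list. The next largest Dam-only height at LINE peaks was 6, at 3 peaks. Peaks without LINE reached at most 12.

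**Figure D4:**
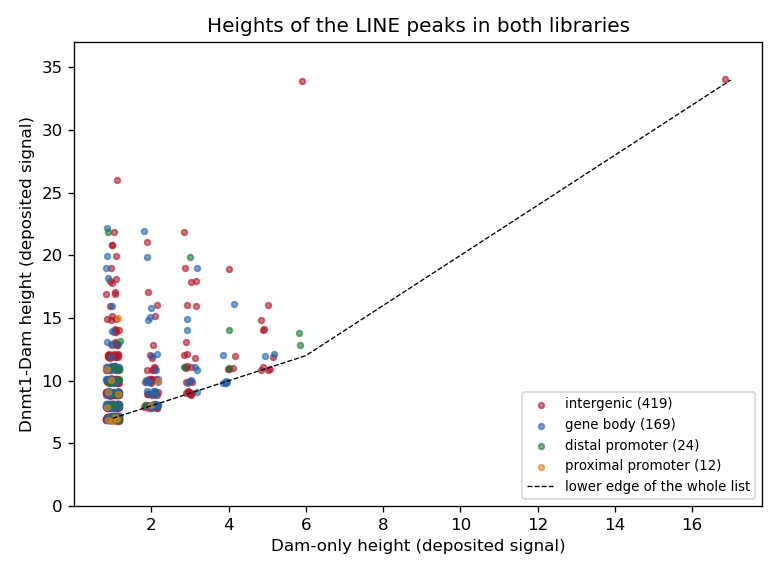
Each point is 1 LINE peak, with its Dam-only height on the horizontal axis and its Dnmt1-Dam height on the vertical axis (deposited signal, spread by a small random shift within each whole number), colored by location class. The dashed line is the lower edge of the whole peak list. Most points stand at a Dam-only height of 1, and the intergenic peak at 17 against 34 lies on the edge, apart from the rest.

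The highest LINE peaks lay in intergenic DNA, gene bodies and distal promoters. That next to Hsfy2 shared the top height with one at -116 kb from Glra1, a glycine receptor subunit gene (chromosome 11, 55537151), where the heights were 34 against 6. A neighbor 100 bp away, named LINE and SINE and so outside the class, had 25 against 1. The third, at -122 kb from the ubiquitin-like modifier gene Ufm1 (chromosome 3, 53789791), had 26 against 1. It also had the largest ratio of the class, 26.0.

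Heights of 22 followed at 5 LINE peaks. One lay at -345 kb from Man1a, a Golgi mannosidase gene (chromosome 10, 54140831; 22 against 1). Another lay at -559 kb from Gramd3, a GRAM domain protein gene (chromosome 18, 56032941; 22 against 3). Inside genes, 22 against 2 was found in Meis1, a homeobox transcription factor gene (chromosome 11, 18892951), and 22 against 1 in Patj, named Inadl in the file, a cell polarity scaffold gene (chromosome 4, 98326801). The fifth was a distal promoter peak at -8.66 kb from Glra3, another glycine receptor subunit gene (chromosome 8, 58410961; 22 against 1). A height of 21 was reached at -938 kb from Tenm4, a teneurin adhesion receptor gene (chromosome 7, 102420681; 21 against 2). The same height was found 311 kb outside Lrfn5, a synaptic adhesion gene (chromosome 12, 63257551; 21 against 1). A further such peak lay 41.9 kb outside Mbl2, which encodes a mannose-binding lectin (chromosome 19, 30356051; 21 against 1). Apart from the Hsfy2 peak, the Dam-only height of these was 6 or less.

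After Meis1 and Patj, the highest gene body LINE peaks were in Bicd2, a dynein adaptor gene (chromosome 13, 49471781; 20 against 1), and Bmp2k, a kinase gene (chromosome 5, 97485231; 20 against 2). The Bicd2 peak had a neighbor 120 bp away with no repeat named and nearly the same height, 19 against 1. A height of 19 was reached in Kat6a, a histone acetyltransferase gene (chromosome 8, 24039261; 19 against 3), and in Sugct (chromosome 13, 17651741; 19 against 1).

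Promoter LINE peaks were few. Among the 24 distal ones, that of Glra3 was followed by Ccr1l1, a chemokine receptor-like gene (-5.28 kb; 20 against 3), Pkp2, a desmosomal plakophilin gene (-3.78 kb; 14 against 4) and Sdr39u1 (-7.20 kb; 14 against 6). Dusp2, a MAP kinase phosphatase gene, had a pair 80 bp apart, at -6.52 kb (13 against 1) and -6.60 kb (11 against 1), and the keratin-associated Krtap5-2 had 13 against 6 at -3.07 kb. Of the 12 proximal LINE peaks, 11 lay upstream of the start site and the highest was that of the collagen gene Col28a1 (-1.79 kb; 15 against 1). Heights of 10 were found at Plk5, a polo-like kinase gene (-2.36 kb; 10 against 1), and Ifitm6, an interferon-induced transmembrane protein gene (-2.19 kb; 10 against 2). Ephx4 had 9 against 1 at -1.29 kb, the same heights as Myh3. Hdac4, a histone deacetylase gene, had 8 against 1 at -1.59 kb, and the lowest, of 7 against 1, were those of Xcl1, Sppl2a, Klk12 and Tnk1.

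LINE peaks were seldom near CpG islands. A LINE peak lay in an island, shore or shelf in 26 of 624 cases (4.17%, 2.74 to 6.05), against 6.81% of peaks without LINE (6.25 to 7.40). Within location classes the intervals overlap: 3.10% (1.66 to 5.25) against 5.42% (4.71 to 6.19) in intergenic DNA and 4.73% (2.07 to 9.11) against 7.96% (7.06 to 8.93) in gene bodies. Only 1 LINE peak was in an island itself, in the body of the zinc finger gene Zfp11 (chromosome 5, 130171991; 7 against 1). Of the 15 in shores, the highest were those of Ptchd1, a patched domain gene (chromosome X, 152344701; -287 kb; 11 against 1), and Vip, the vasoactive intestinal peptide gene (-3.10 kb; 11 against 3). Shore peaks of 10 against 1 lay at -2.36 kb from Plk5, -6.15 kb from Sertad1 and -75.1 kb from Asph.

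The X chromosome had few LINE peaks for its length, as it had few peaks without LINE. It held 21 of the 624, or 0.126 per Mb (0.0781 to 0.193), against 0.244 per Mb on the autosomes (0.225 to 0.265). Lengths ran to the last listed peak of each chromosome. The density on X was 0.516 times the autosomal one (0.317 to 0.796) for LINE peaks and 0.350 times (0.299 to 0.406) for peaks without LINE. For LTR peaks it was 0.533 times (0.354 to 0.771) and for SINE peaks 0.388 times (0.267 to 0.544). These intervals overlap. As a share of peaks, LINE peaks were 10.7% on X (6.72 to 15.8) and 7.51% on the autosomes (6.94 to 8.11), and in intergenic DNA alone 15.7% (9.45 to 24.0) and 9.87% (8.98 to 10.8). By density X was below the autosomes, while its share of LINE peaks could not be separated from theirs. Of its 21 LINE peaks, 17 were intergenic and the highest reached 12. A height of 12 was found 148 kb outside Ids, a lysosomal sulfatase gene (67448511; 12 against 1). Heights of 11 against 2 were found 38.2 kb outside Slitrk4, 58.6 kb outside Ubqln2 and in the body of Reps2. Among autosomes, chromosome 19 alone had an interval below the autosomal share, with 8 of 214 peaks (3.74%, 1.63 to 7.23), and the other 18 intervals contained it. The 1 peak on chromosome Y was not a LINE peak.

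**Figure D5:**
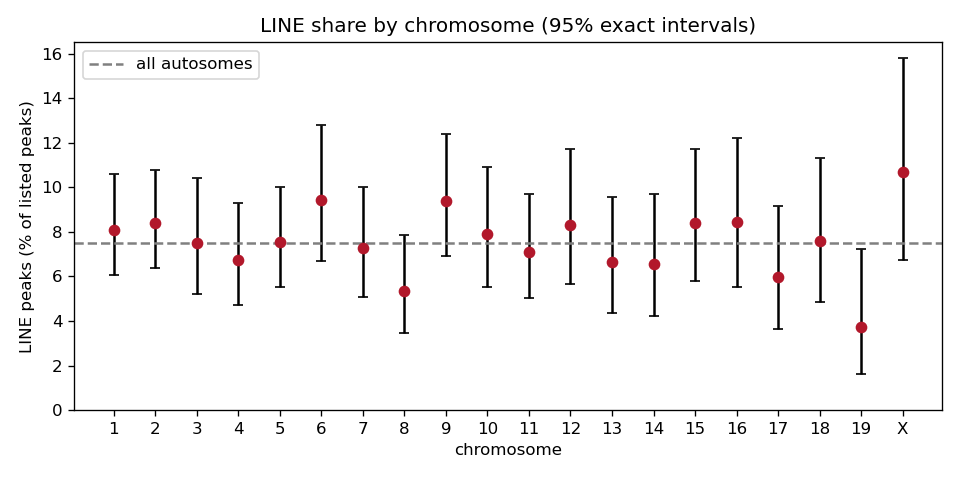
Points give LINE peaks as a percentage of the listed peaks of each chromosome, with exact 95% intervals, and the dashed line is the share over all autosomes (7.51%). Chromosome 19 (3.74%) lies below the line with its whole interval, and the interval of X (10.7%) contains it.

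Close neighbors were about as frequent among all LINE peaks as among the others. Among peaks of height 9 or more they were less frequent at LINE peaks. Another listed peak lay within 1 kb of 72 LINE peaks (11.5%, 9.14 to 14.3) and of 12% of peaks without LINE (11.3 to 12.7). For peaks of height 9 or more, with neighbors of any listed height, the shares were 9.87% (6.81 to 13.7) and 15%. For height 15 or more they were 10.4% (3.47 to 22.7) and 20.6%, and that interval contains the share without LINE. Over the whole list, the LINE peaks with neighbors fell into 47 runs of peaks no more than 1 kb apart. In 24 runs all peaks were LINE peaks, in 20 the others had no repeat named, and in 3 another class was named. The 23 pairs made of LINE peaks were 80 to 200 bp apart, with a median gap of 100 bp, and in 15 of them the heights differed by at most 1. The pair next to Gramd3 differed most (22 against 3 and 12 against 1, 120 bp apart). The pair at -40.7 and -40.6 kb from Aadat on chromosome 8 had 13 and 14 against 1 in both. From a list of positions, such neighbors and a single broad site cannot be told apart.

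In all, 542 genes had an assigned LINE peak, of 4841 genes with any peak (11.2%). Of these, 472 had 1, 59 had 2 and 11 had 3 or more, and 157 had a LINE peak inside the body. The gene with most was 4931417E11Rik, a gene of 1.09 kb on chromosome 6 with 4 LINE peaks among 9 peaks. Its LINE peaks lay between -975 and -1835 kb, with heights of 9 to 12. Cntnap5b, a contactin-associated protein gene, had 3 (the highest 18 against 3), 1 of them inside its 713 kb body. Tenm3, another teneurin gene, had 3, all outside the body, including a pair of 9 and 15 against 1 at -1108 kb. Mterf1b, of a family of mitochondrial transcription factors, had 3 downstream, with heights of 15, 7 and 15 against 1. Sdk2, a synaptic adhesion gene, had 3 within 230 bp of each other in its body (7, 7 and 9 against 1). The body of Gphn, which encodes the inhibitory synapse scaffold gephyrin, and that of the transcription factor gene Npas3 each held 2 of 3. Gramd3, Otol1, Speer2 and Adcyap1, a neuropeptide gene, had 3 each with none inside. Assignment to a distant gene is positional and names no target.

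Of the 8 gene lists, that of sensory receptors had the largest share of LINE peaks. These olfactory, vomeronasal, taste and trace amine receptor genes are short and sit in large clusters. They had 48 peaks, of which 13 were LINE peaks (27.1%, 15.3 to 41.8), against 7.59% of all peaks (7.02 to 8.18). The 13 belonged to 13 genes on 8 chromosomes, and 29.5% of the 44 receptor genes with a peak had one, against 11.2% of all genes with a peak. With intergenic peaks within 100 kb of the gene alone, 11 of 36 were LINE peaks (30.6%, 16.3 to 48.1), against 172 of 2242 for other genes (7.67%, 6.60 to 8.85). Olfactory receptors had 8 of 26 (30.8%, 14.3 to 51.8) and vomeronasal receptors 2 of 14 (14.3%, 1.78 to 42.8). The list was not tested against others.

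Most of these receptor peaks were low. The highest was 1.96 kb from the start of Olfr776 (chromosome 10, 128699981), with 18 against 3. Next were Olfr543 (chromosome 7, 109617861; 11 against 1), Olfr344 (chromosome 2, 36455481; 10 against 1) and the bitter taste receptor gene Tas2r126 (chromosome 6, 42394211; 10 against 1). Tas2r118 and Tas2r134 had 9 against 1. The other 7 were at 7 or 8, with a Dam-only height of 1 or 2. With peaks of height 9 or more, 6 of 23 were LINE peaks (26.1%, 10.2 to 48.4).

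Among long neuronal adhesion and synapse genes, 15 of the 36 with a peak had a LINE peak (41.7%), against 11.2% of all genes with a peak. These genes hold many peaks each, with 22 LINE peaks among 187 (11.8%, 7.52 to 17.3). That interval overlaps the one of all peaks. Members with a LINE peak included Tenm4, Cntnap5b and Tenm3, and also Ctnna3, an alpha-catenin gene with a peak in its body (10 against 1). Zinc finger genes named Zfp had 5 LINE peaks among 116 (4.31%, 1.41 to 9.77), in 5 of 69 members with a peak. They were Zfp706 (-37.8 kb; 15 against 1), Rnf112 and Zscan26, both under older Zfp names in the file, Zfp11 and Zfp512.

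The lists drawn up around retroelement control and germline defence had 1 LINE peak in all. Genes of retroelement silencing by DNA methylation and heterochromatin had 0 among 12 peaks, which allows a share of up to 26.5%, and genes known to restrict LINE-1 also had 0 among 12 (up to 26.5%). Genes of the piRNA pathway and germline defence had 1 among 6 (16.7%, 0.421 to 64.1). It was assigned to Dazl, an RNA-binding protein gene of germ cells (7 against 1). The peak lay 27.8 kb downstream of the start site and 13.6 kb outside the gene. Genes of pluripotency and the early lineages had 0 among 36 (up to 9.74%), and imprinted genes 2 among 19 (10.5%, 1.30 to 33.1). These were at -693 kb from Ndn (12 against 1) and in the body of Trappc9 (9 against 2). Each of these intervals contains the share of all peaks, so no difference was detectable with so few peaks.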

How the data were processed

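DamID libraries from genomic DNA of embryos injected with Dnmt1-V5-Dam or Dam alone (1 library each) were made with 15 cycles of PCR and size selection around 300 bp, per the labels' protocols. CASAVA, BWA and build mm9 are named in the submitters' processing notes. No source used here gives the peak caller, its thresholds, the origin of the repeat annotation, or how duplicates and reads with several mapping positions were handled. The last bears on LINEs, which have many near-identical copies. The authors deposited a signal height per peak and library, as whole numbers; no label says whether they are raw or scaled, and no depth is known. Peak positions, gene ends and classes are as the authors deposited them, per the file headers, and peaks have no width. Distances were computed from those gene ends. The members and lists were chosen with earlier results of these data known. Symbols came from RefSeq (GRCm38.p6), which matched 621 of the 624 LINE peaks by accession, gene ID or symbol.

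Shares, medians and their intervals were computed with Python 3.11.15, scipy 1.17.1 and pandas 2.3.3, and tested on simulated data. Named were the highest peaks of all, by location, on X and in CpG islands or shores, the genes with 3 or more LINE peaks and the list members with the highest LINE peak, with ties included. Some peaks that this rule names are not reported here. The bins of distance, gene length and position along the gene, and the split of the receptor list, were set after seeing the data. Alternatives were peaks of height 9 or more or 15 or more, 1 peak per 1 kb run, Dam-only height 1 alone, other definitions of a LINE peak, pseudocounts of 1 and 10 and other distance limits.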

Additional observations from a re-analysis of the deposited data

How the results depend on the processing

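Of 108 recalculated values of 18 results, 83 stayed within the interval of the reported value (for the count, within 1.5 times) and 25 moved beyond it. The intergenic share of LINE peaks exceeded the gene body share in 6 of 6 settings, and the share beyond 100 kb exceeded that of peaks without LINE in 7 of 7. The median gene length was the longer one for LINE peaks in 5 of 6, with height 15 or more as the exception. With height 9 or more it was 116 kb (91.2 to 193) against 109.6 kb, and that interval contains the value without LINE. Most moves follow from the construction of the alternative, since a height limit raises heights and goes with higher Dam-only values. With height 9 or more, 314 LINE peaks were left, with a median height of 10 in both locations, a median ratio of 9 and a median gene length of 116 kb. Height 15 or more was then reached by 15.3% (intergenic) and 15.5% (gene body), and a Dam-only height of 1 was held by 64.1% and 59.5%. With height 15 or more, 48 were left, with a median height of 18 in both locations, a median ratio of 13 and a median gene length of 103 kb. A Dam-only height of 1 was then held by 53.1% and 38.5%, 65.6% of intergenic LINE peaks were over 100 kb out, and LINE shares were 6.87% on autosomes and 0% on X (upper limit 24.7%). At a Dam-only height of 1 alone, 5.17% (intergenic) and 3.97% (gene body) reached height 15. Pseudocounts of 1 and 10 gave ratios of 4.50 and 1.64. With limits of 50 kb for distance and 10 kb for neighbors, the shares were 72.3% and 16.7%. Settings that fix a share by definition were not run (height 15 for its own share, Dam-only 1 for its own share, 1 peak per run for neighbors). Added after seeing the data, 1 peak per run left the receptor list at 27.7% LINE peaks. No paired analysis was possible because each group has 1 library. Depth is unknown, and heights near the lowest listed value limit every comparison of heights.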

Other observations

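The 49 peaks at which LINE was named together with SINE or LTR sequence had a median height of 9 (interquartile range 8 to 10), and 34 of them (69.4%, 54.6 to 81.7) had a Dam-only height of 1. The highest were the neighbor of the top LINE peak next to Glra1 (25 against 1, LINE and SINE) and a peak at -336 kb from Tmpo on chromosome 10 (90970081; 25 against 5, LINE and LTR). The third was in the body of Dock3 on chromosome 9 (107099861; 19 against 2, SINE and LINE).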
